A study of Mus musculus with 20 samples.

Results

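Heat shock proteins and other chaperones formed the set described here, read in the kidneys of mice injected with engineered IgA1-IgG immune complexes (EIC) and given sparsentan or vehicle. The members were every gene whose symbol begins with HSPA, HSPB, HSPD, HSPE, HSPH, HSP90, DNAJA, DNAJB or DNAJC, or with BAG and a digit, together with Hsf1, Hsf2, Calr, Canx, Pdia3, Pdia4 and Pdia6. The deposited table listed 83 of them among 15780 genes, and 79 of them, among 13990 genes, reached 10 counts in 5 or more of the 20 libraries and were tested. The rule used symbols alone. EIC mouse 65 had a count for each of the 15780 listed genes, while the other 19 libraries each had between 234 and 654 of them at 0, so genes without a count in that mouse are not in the table, and members among them are not counted here. The 4 members too low to test were Hspa1l, Dnajc5b, Dnajb13 and Hspb9, whose counts in single libraries ran from 0 to 15.

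Chaperones bind unfolded or partly folded proteins, keep them from clumping and help them fold. HSP70 proteins work in cycles of ATP hydrolysis that J-domain proteins (the DNAJ symbols) start and that BAG and HSP110 proteins help to end, HSP90 proteins finish the folding of kinases and receptors, small heat shock proteins hold unfolded chains, and the chaperonin encloses them inside mitochondria. In the endoplasmic reticulum (ER), the HSP70 protein BiP, the lectins calreticulin and calnexin and the disulfide isomerases fold secreted and membrane proteins. Heat shock factor 1 raises the cytosolic chaperones when proteins unfold in the cytosol, and the unfolded protein response raises those of the ER. In the kidney, HSP70 and small heat shock proteins are known to be rich in the medulla, whose cells live in concentrated salt and urea.

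Each group held 5 female NCr nude mice, an athymic strain without mature T cells, which were 7 weeks old when bought. Control mice were injected with PBS, and the EIC, EIC + S60 and EIC + S120 mice received 6 tail-vein injections of EIC, each made of 0.2 mg galactose-deficient IgA1 (Gd-IgA1) and 0.1 mg of a recombinant IgG against it (rIgG), both human proteins in a mouse host. Sparsentan, a single molecule that blocks a receptor of endothelin and a receptor of angiotensin II, was given by gavage at 60 mg/kg (S60) or 120 mg/kg (S120), and Control and EIC mice were gavaged with vehicle. Gavage lasted 11 days in all groups, whole kidneys were taken on day 12, and each library came from poly(A)-selected RNA of 1 mouse.

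The libraries held from 12662345 to 38651781 counts, with the deepest 2 in Control, and the members took 1.06% of the counts in Control, 1.08% in EIC, 1.105% in EIC + S60 and 1.118% in EIC + S120 (means of 5 mice, SD 0.0336 to 0.0537). Kidney markers were present in every library, with a summed level of 9 proximal tubule genes between 12519.7 and 20357 CPM (counts scaled to library size). Control mouse 653 stood apart: 9.81% of all tested genes in it were at least 1.5-fold above the median of the other 4 Control mice, against 1.99% to 3.30% in those mice, and EIC + S120 mouse 77 stood apart in the same way with 10.3%. For some of the results that rest on either mouse, values are given with and without it.

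The promoters of 6 members from both arms of the chaperone response are shown. Hspa8 and Dnajc5, which were also called against Control, are not among them, and neither had a searched motif found in a window. The 6 comprise 3 members called in a comparison with Control (Dnajb6, Hspe1 and Dnajb9), the ER member nearest to a call (Hspa5) and the inducible HSP70 pair that ran high in Control mouse 653 (Hspa1a and Hspa1b). Each is the 250 bases before the RefSeq transcript start, written 5′ to 3′ on the gene's own strand of GRCm38.p6, at chr5:29735648-29735897 (plus strand) for Dnajb6, chr1:55087898-55088147 (plus) for Hspe1, chr2:34771840-34772089 (plus) for Hspa5, chr12:44210069-44210318 (minus) for Dnajb9, chr17:34972157-34972406 (minus) for Hspa1a and chr17:34959239-34959488 (minus) for Hspa1b. Capitals mark a heat shock element in Dnajb6, Hspe1, Hspa1a and Hspa1b, an ER stress element in Hspa5 and an E-box in Dnajb9.
Dnajb6: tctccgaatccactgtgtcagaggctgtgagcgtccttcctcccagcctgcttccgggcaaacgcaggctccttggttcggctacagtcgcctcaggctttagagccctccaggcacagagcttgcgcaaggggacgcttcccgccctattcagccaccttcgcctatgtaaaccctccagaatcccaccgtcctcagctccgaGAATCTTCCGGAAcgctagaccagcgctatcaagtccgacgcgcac
Hspe1: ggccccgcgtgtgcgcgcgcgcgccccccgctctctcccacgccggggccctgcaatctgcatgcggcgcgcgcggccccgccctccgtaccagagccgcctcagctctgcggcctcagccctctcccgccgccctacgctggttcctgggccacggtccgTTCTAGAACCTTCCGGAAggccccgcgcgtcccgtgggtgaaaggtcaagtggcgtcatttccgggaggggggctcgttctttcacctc
Hspa5: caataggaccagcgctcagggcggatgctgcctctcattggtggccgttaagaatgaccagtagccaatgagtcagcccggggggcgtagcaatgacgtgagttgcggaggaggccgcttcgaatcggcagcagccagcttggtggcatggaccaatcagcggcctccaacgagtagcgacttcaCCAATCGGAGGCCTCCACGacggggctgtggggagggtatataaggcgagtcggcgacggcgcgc
Dnajb9: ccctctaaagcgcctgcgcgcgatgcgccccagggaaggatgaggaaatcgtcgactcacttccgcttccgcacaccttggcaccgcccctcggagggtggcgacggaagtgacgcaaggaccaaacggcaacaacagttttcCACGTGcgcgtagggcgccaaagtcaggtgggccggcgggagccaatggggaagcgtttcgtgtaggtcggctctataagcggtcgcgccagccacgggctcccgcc
Hspa1a: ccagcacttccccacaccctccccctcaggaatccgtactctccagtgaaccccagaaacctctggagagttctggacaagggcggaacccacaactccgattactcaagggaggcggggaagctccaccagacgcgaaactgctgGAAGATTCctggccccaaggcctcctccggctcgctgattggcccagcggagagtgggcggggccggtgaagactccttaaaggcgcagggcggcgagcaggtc
Hspa1b: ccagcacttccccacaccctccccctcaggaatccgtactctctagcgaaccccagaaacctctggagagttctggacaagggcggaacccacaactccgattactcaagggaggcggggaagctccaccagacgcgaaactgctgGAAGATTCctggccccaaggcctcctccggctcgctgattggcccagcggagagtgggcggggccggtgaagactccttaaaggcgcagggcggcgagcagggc

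The motifs were searched on both strands of these windows. The heat shock element was GAA and TTC, in either order, with any 2 bases between them, and it lay in the windows of 13 of the 67 members with a RefSeq window (19.4%), against 14.5% of 27025 genes. Its longer form of 3 units, in which GAA and TTC alternate and any 2 bases separate each unit from the next, was in 3 members, Dnajb6, Hspe1 and Hspd1 (4.48%), and in 0.514% of genes. Every window with the longer form also counts as one with the shorter form, since the letters overlap. Hspe1 and Hspd1 are transcribed away from each other, and the element in both windows is the same 18 bases, chr1:55088059-55088076, whose outermost base lies 89 bases before the Hspe1 start on one side and 144 bases before a start of Hspd1 on the other. The ER stress element, CCAAT and CCACG with any 9 bases between them, was in 6 members (Calr, Canx, Dnajc3, Hsp90b1, Hspa5 and Pdia6), which is 8.96% of them and 0.13% of genes. The E-box, CACGTG, a motif bound by bHLH factors, was in 8 members, Dnajb9 among them, or 11.9% against 6.86% of genes. These matches describe letters in the windows and not bound sites.

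EIC vs. Control sets kidneys of mice injected with the immune complexes beside those of mice injected with PBS. The paper states that cages were not controlled for. It says both that mice were randomly divided into groups and that they were not randomized. An effect of the complexes therefore cannot be told apart from a difference of cage or handling between the groups. Hspa8 and Dnajb6 rose, and the other 77 tested members did not pass an adjusted p of 0.05. That is 2 of 79 members (2.53%), beside 2.97% of all genes tested, a share near that of genes in general. Both were higher (2.53%, beside 1.61% of genes called higher), and none was lower (0%, beside 1.37%). The members' median log2 fold change (LFC) was -0.00, with 38 above 0 and 41 below, and the median over all genes was -0.01, with 47.6% above 0. At an unadjusted p under 0.05 there were 13 members (16.5%), beside 16.8% of all genes. After Hspa8 and Dnajb6, the smallest p-values were those of Dnajc22 (LFC -0.22), Hspbap1 (-0.37), Hspe1 (0.22), Dnajc7 (0.15), Dnajb9 (0.19), Hsf2 (-0.25), Dnajc4 (0.19) and Calr (0.21), at adjusted p from 0.134 to 0.26. In whole kidney, fewer cells of a type and less RNA per cell cannot be told apart, here or in any comparison that follows.

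Hspa8 encodes HSC70, the constitutive HSP70 of the cytosol, which also strips clathrin from vesicles and feeds proteins to lysosomes. It read 1033, 1059, 859.9, 860.4 and 781 CPM in the 5 Control mice, and 1138, 1361, 1117, 1466 and 1260.5 CPM in the 5 EIC mice. Every EIC mouse was above every Control mouse, a separation that 4.01% of all genes showed in one direction or the other. The LFC was 0.47 ± 0.12 (SE), a fold of 1.38, with an adjusted p of 0.0344. The gene lies at chr9:40800984-40810087 on the plus strand, and 3 snoRNA genes (Snord14c, Snord14d and Snord14e) sit inside its span.

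Dnajb6, at chr5:29735688-29818134 on the plus strand, encodes a J-domain protein that keeps aggregation-prone proteins soluble. Its levels were 75.4, 72.3, 81.3, 72.7 and 64.4 CPM in Control and 91.2, 104, 80.7, 80.3 and 93.2 CPM in EIC. Here the groups touched, since the lowest 2 EIC mice were under the highest Control mouse. The LFC was 0.30 ± 0.08, with an adjusted p of 0.0403.

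Both calls of EIC vs. Control were close to the threshold. In the 10 fits that each left out 1 Control or EIC mouse, Hspa8 stayed called in 4 and Dnajb6 in 3. Without Control mouse 653 the Hspa8 adjusted p was 0.0609 at an LFC of 0.44, and with the 10 libraries of the comparison alone neither gene was called (adjusted p of 0.0663 for Hspa8 and 0.114 for Dnajb6). Over all genes the share called was 2.53% without mouse 653 and 1.04% with those 10 libraries, beside 2.97% in the main fit. Without mouse 653 a different second gene was called beside Dnajb6, namely Dnajc22, whose LFC moved from -0.22 (adjusted p 0.134) to -0.28 (adjusted p 0.0356).

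**Figure D1:**
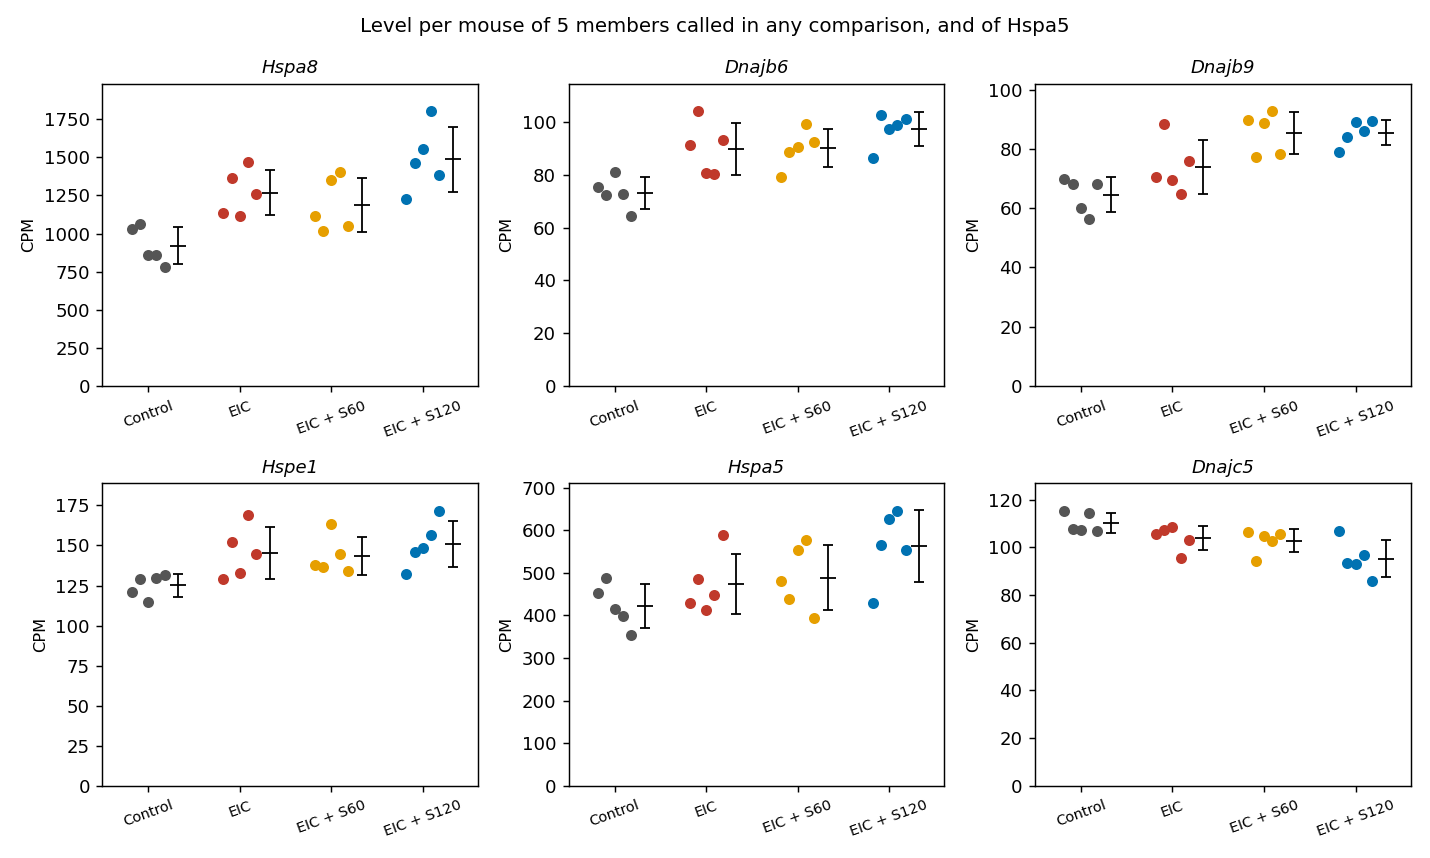
Level of 6 members in each mouse, as CPM on a linear axis from 0, for Control, EIC, EIC + S60 and EIC + S120 (5 mice each). Points are mice and bars the mean ± SD. Hspa8 runs from 781 to 1059 CPM in Control and from 1227 to 1803 CPM in EIC + S120, with no overlap, while Hspa5 overlaps between those groups.

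The other kidney genes that moved in the same comparison included clock genes. Of 15 clock genes, 8 were called higher and 3 lower in EIC vs. Control (73.3%, beside 2.97% of all genes). Cry1, a repressor of the clock, read 1.62 to 3.67 CPM in Control, 9.10 to 13.5 CPM in EIC, 6.62 to 12.3 CPM in EIC + S60 and 17.5 to 23.9 CPM in EIC + S120. The sparsentan groups against Control gave 7 higher and 3 lower at 60 mg/kg and 6 higher and 2 lower at 120 mg/kg. These are 66.7% and 53.3% of the 15, beside 1.29% and 5.55% of all genes. No source used here gives the hour at which each kidney was taken. Of 14 immediate early genes 5 were called lower in EIC vs. Control (35.7%, beside 2.97% of all genes). Among them was Fos, at 10.1 to 27.2 CPM in Control and 0.512 to 4.01 CPM in EIC. Rbm3, an RNA-binding protein induced by mild cold, rose with an LFC of 0.45 (adjusted p 0.0188). Of 9 macrophage markers 5 were called higher (55.6%, beside 2.97% of all genes). The summed level of the 9 went from 81.7 to 104 CPM in Control to 98.3 to 259 CPM in EIC. The part of all these genes in the chaperone results was not tested.

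Against EIC, neither dose of sparsentan gave a called member. In EIC + S60 vs. EIC no gene of the 13990 passed (0% of genes), and 4 of 79 members had an unadjusted p under 0.05, or 5.06%, beside 6.05% of all genes. In EIC + S120 vs. EIC 8 genes passed (0.0572%), none of them a member, and again 4 members (5.06%) had an unadjusted p under 0.05, beside 8.45% of genes. DESeq2 also called 0 members in both. A p that misses the threshold does not show that the levels were alike: the median SE of a member's LFC was 0.09, and the member LFCs ran from -0.40 to 0.49 at 60 mg/kg and from -0.27 to 0.32 at 120 mg/kg.

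The member with the smallest p in EIC + S60 vs. EIC was Bag2, which binds HSP70 and holds back the ubiquitin ligase CHIP. Bag2 read 7.53, 7.38, 6.25, 5.79 and 8.10 CPM in EIC, 10.2, 9.70, 6.92, 10.5 and 8.56 CPM in EIC + S60 and 6.76, 9.71, 8.25, 8.64 and 10.5 CPM in EIC + S120. The groups overlapped, and the LFC against EIC was 0.38 ± 0.13 at 60 mg/kg (adjusted p 0.738 by edgeR's quasi-likelihood test) and 0.32 ± 0.13 at 120 mg/kg (adjusted p 0.507). Dnajb9 had an LFC of 0.21 ± 0.08 at 60 mg/kg (adjusted p 0.754) and 0.21 ± 0.08 at 120 mg/kg (adjusted p 0.453). Dnajb14, a J-domain protein of the ER membrane, was the one member whose EIC + S60 mice all lay above the EIC mice, at 54.3 to 66.1 CPM against 50.1 to 53.8 CPM, with an LFC of 0.15 and an adjusted p of 0.815. Such a separation occurred in 0.886% of all genes. The rest of the 10 members with the smallest p in EIC + S60 vs. EIC were Dnajc4, Dnajc6, Dnajc7, Dnajc3, Dnajc18, Dnajc13 and Canx, with LFCs between -0.19 and 0.24. In EIC + S120 vs. EIC those after Dnajb9 and Bag2 were Dnajc5 (-0.13), Dnajc22 (0.17), Hspa5 (0.25), Dnaja1 (0.14), Hspa8 (0.23), Dnajc30 (-0.15), Dnajc7 (-0.10) and Dnajc19 (0.17).

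Hspa8 was not called between EIC and either dose of sparsentan. It read 1113, 1019, 1348, 1403 and 1048 CPM in EIC + S60 and 1227, 1463, 1558, 1803 and 1383 CPM in EIC + S120. The LFC against EIC was -0.10 ± 0.12 at 60 mg/kg (adjusted p 0.935) and 0.23 ± 0.12 at 120 mg/kg (adjusted p 0.611). Between the doses the LFC was 0.33 ± 0.12, with an adjusted p of 0.439 in edgeR's quasi-likelihood test. EIC + S120 vs. EIC + S60 had 0 called members, where 0.0643% of all genes were called, and Hspa8 and Bag6 were the 2 members with an unadjusted p under 0.05 (2.53%, beside 8.08% of genes).

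Compared with Control, the treated groups gave more calls than they did against EIC. These comparisons share the Control libraries with EIC vs. Control and with each other, so each is given by its own values. In EIC + S60 vs. Control 1 of 79 members rose (1.27%, beside 1.29% of all genes called and 0.808% called higher), and in EIC + S120 vs. Control 4 rose and 1 fell, or 5 of 79 (6.33%, beside 5.55% of all genes). The 4 that rose are 5.06% of members, beside 2.89% of genes called higher, and the 1 that fell is 1.27%, beside 2.67% of genes called lower. The members' median LFC was 0.03 at 60 mg/kg and 0.01 at 120 mg/kg, beside -0.01 over all genes in both. The summed level of 8 smooth muscle and mural markers was 218.5 to 386 CPM in Control, 239.5 to 427 CPM in EIC, 549 to 998 CPM in EIC + S60 and 605 to 1001 CPM in EIC + S120. Of these 8, Ren1, which encodes renin, was the one called against Control, with an LFC of 2.29 at 60 mg/kg (adjusted p 0.000652) and 2.35 at 120 mg/kg (adjusted p 0.000177). Other marker lists also held a call in EIC + S120 vs. Control, with 1 of 5 collecting duct, 1 of 9 proximal tubule and 1 of 4 adipocyte genes. The median summed level of the collecting duct markers was 768 CPM in Control and 498 CPM in EIC + S120. Their part in the chaperone results was not tested.

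Hspa8 had the highest LFC of the 79 in EIC + S120 vs. Control, 0.69 ± 0.12 (a fold of 1.62, adjusted p 0.000995), and each of its EIC + S120 mice was above each Control mouse. At 60 mg/kg its LFC was 0.37 ± 0.12 (adjusted p 0.147), and 2 of the 5 treated mice lay inside the Control range. The means were 919 ± 121.14 CPM in Control, 1269 ± 148 in EIC, 1186 ± 177 in EIC + S60 and 1487 ± 214 in EIC + S120 (SD, n = 5).

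Dnajb6 read 79.3, 88.7, 90.7, 99.3 and 92.4 CPM in EIC + S60 and 86.5, 103, 97.6, 99.04 and 101 CPM in EIC + S120. The mice at the higher dose were all above the Control mice, while 1 mouse at the lower dose was inside the Control range. Its LFC against Control was 0.41 ± 0.08 at 120 mg/kg (adjusted p 0.00237) and 0.30 ± 0.08 at 60 mg/kg (adjusted p 0.0593), and without Control mouse 653 the latter was 0.33 (adjusted p 0.0467).

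Dnajb9, at chr12:44205559-44210326 on the minus strand, encodes ERdj4, a J-domain protein of the ER that brings BiP to the stress sensor IRE1 and helps to clear misfolded proteins. It read 69.8, 68.3, 60.04, 56.4 and 68.01 CPM in Control and 70.5, 88.4, 69.6, 64.6 and 76.02 CPM in EIC. Under sparsentan it read 89.9, 77.2, 88.9, 92.8 and 78.3 CPM in EIC + S60 and 79.1, 84.02, 89.1, 86.1 and 89.4 CPM in EIC + S120. All 10 treated mice were above all 5 Control mice, and the EIC mice overlapped both. Its LFC against Control was 0.19 ± 0.08 in EIC (adjusted p 0.215), 0.40 ± 0.08 in EIC + S60 (adjusted p 0.00976) and 0.41 ± 0.08 in EIC + S120 (adjusted p 0.00347), and the LFC between the doses was 0.00 ± 0.08 (adjusted p 0.999).

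Hspe1, at chr1:55088132-55091307 on the plus strand, encodes HSP10, the lid of the mitochondrial chaperonin whose barrel is HSP60, the product of Hspd1. It read 120.69, 129, 115, 129.6 and 131 CPM in Control, 129, 152, 133, 169 and 145 CPM in EIC, 138, 136, 163, 145 and 134 CPM in EIC + S60 and 132, 146, 149, 157 and 172 CPM in EIC + S120. Both treated groups lay above the Control mice, and 1 EIC mouse was inside the Control range. Hspe1 rose in EIC + S120 vs. Control with an LFC of 0.27 ± 0.08 (adjusted p 0.0465). The call held in 1 of the 10 fits that each left out 1 Control or EIC + S120 mouse, and the adjusted p was 0.101 without Control mouse 653. Hspd1 had an LFC of 0.16 ± 0.07 (adjusted p 0.249) and was not called. The 2 genes overlap by 112 bases at their starts, on opposite strands, and the strand setting of the counting is not given in the sources used here.

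Dnajc5, at chr2:181520485-181555133 on the plus strand, encodes cysteine string protein, a J-domain protein of secretory vesicles, and was the member that fell. It read 115, 108, 107, 114 and 107 CPM in Control, 106, 107, 108, 95.5 and 103 CPM in EIC, 106, 94.3, 105, 103 and 105 CPM in EIC + S60 and 107, 93.3, 93.02, 96.96 and 85.7 CPM in EIC + S120. Mouse 77 of EIC + S120 was within the Control range and the other 4 were under it. The LFC of EIC + S120 vs. Control was -0.21 ± 0.06 (adjusted p 0.0305), and the call held in 4 of the 10 fits that each left out 1 mouse of these groups. Without mouse 77 the LFC was -0.26 (adjusted p 0.00531).

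Separation of whole groups was also counted. In EIC + S120 vs. Control, 6 members had all 5 treated mice above all 5 Control mice (Hspa8, Hsp90ab1, Hspe1, Dnajb6, Dnajb9 and Dnajc10) and 1, Dnajb5, had all of them below, which is 8.86% of members beside 5.82% of all genes. Hsp90ab1 and Dnajc10 were not called among the 6, and Dnajb5 had an LFC of -0.41 ± 0.15 (adjusted p 0.142). In EIC + S60 vs. Control the members without overlap were Hsp90ab1, Hspe1 and Dnajb9 above and Dnajc5 and Dnajc11 below, 6.33% beside 3.82% of all genes.

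**Figure D2:**
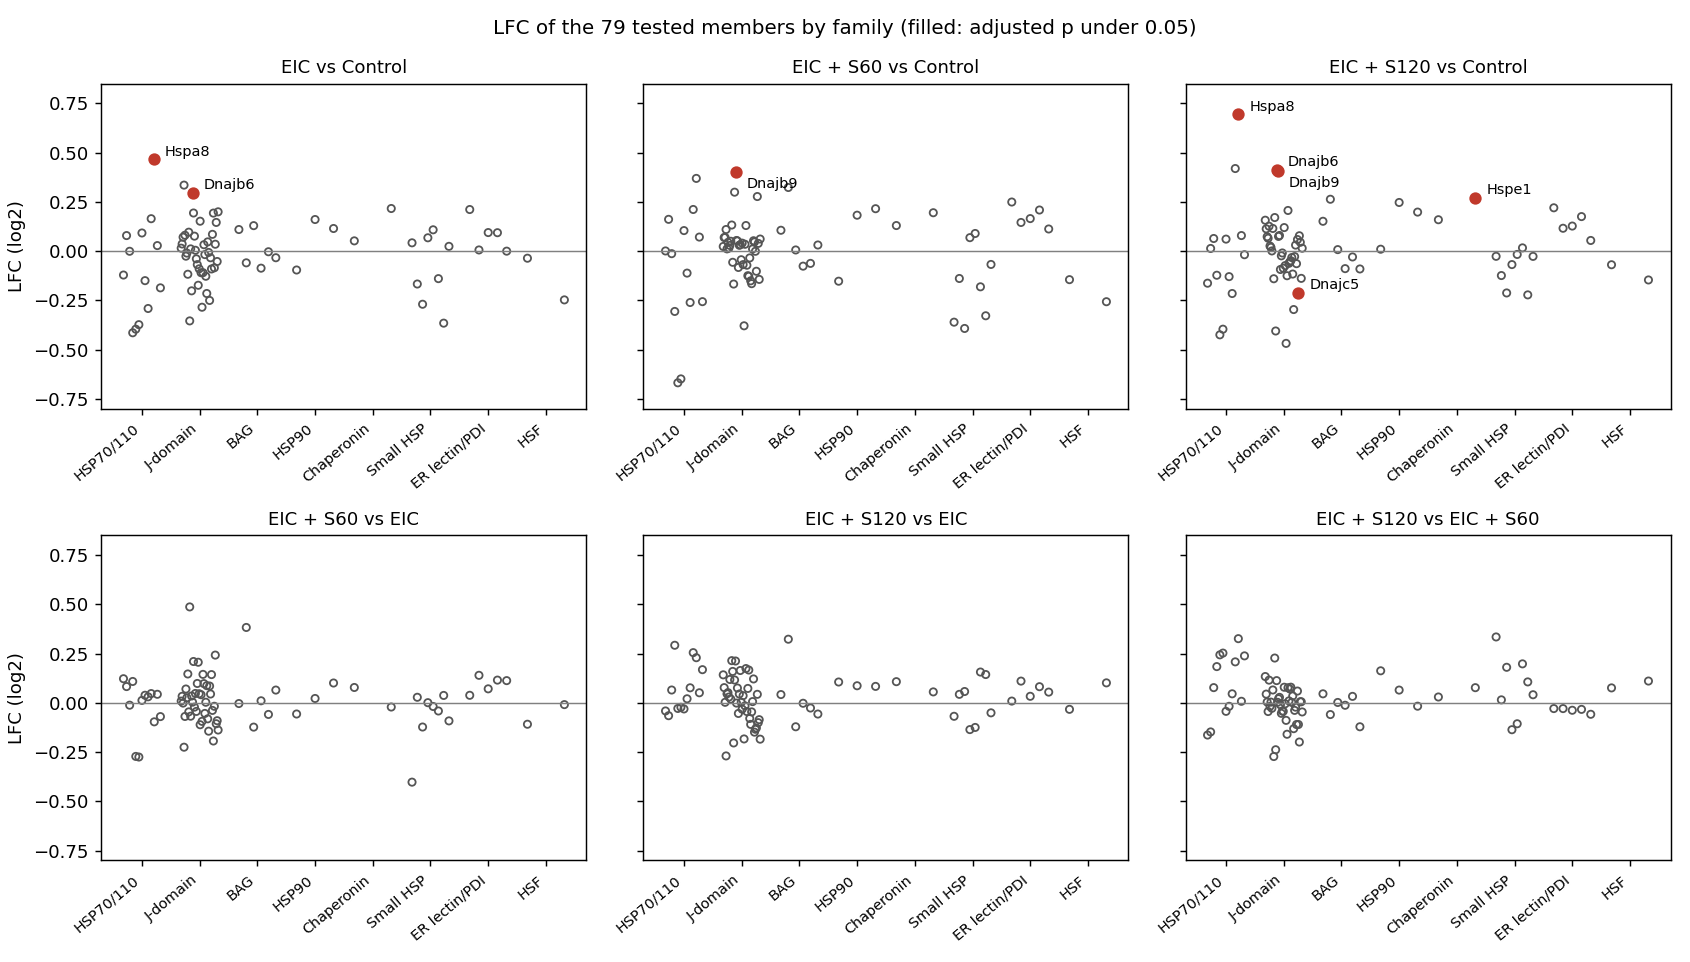
LFC (log2) of the 79 tested members by family in each of the 6 comparisons, 1 point per member, with filled red points for an adjusted p under 0.05. The calls are 2 in EIC vs. Control, 1 in EIC + S60 vs. Control and 5 in EIC + S120 vs. Control, and there are 0 in the comparisons between EIC-injected groups.

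The HSP70 family had 13 tested members, the HSP110 relatives included, and Hspa8 was the one called, in EIC vs. Control and in EIC + S120 vs. Control. That is 7.69% of the 13 in each, beside 2.97% and 5.55% of all genes. The other 12 were called in none of the 6 comparisons by edgeR with TMM scaling. With RLE or upper-quartile scaling, limma-voom or DESeq2, Hspa5 was called in EIC + S120 vs. Control. They include Hspa9, the mitochondrial HSP70 mortalin, at 810.0 to 911 CPM in Control and 827 to 1055 CPM in EIC + S120, Hspa4 and Hspa4l, nucleotide exchange factors of HSP70, and Hspa14, which ran low, at 0.774 to 1.13 CPM in Control. The remaining ones were Hspa2, Hspa12a, Hspa12b and the ER protein Hspa13, with LFCs in EIC + S120 vs. Control of 0.06, -0.16, 0.01 and 0.06. Against Control, 5 of 13 had an LFC above 0 in EIC and 6 of 13 in each sparsentan group, beside 47.6%, 47.3% and 46.8% of all genes. Without Control mouse 653 these counts were 7, 8 and 9 of 13, and without mouse 77 the count in EIC + S120 was 4 of 13. Mouse 653 was high for Hspa1a, Hspa1b, Hspa4l and Hsph1, so leaving it out raises their LFCs by construction.

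The 3 HSP90 genes gave no call by edgeR, although 2 of them had an unadjusted p under 0.05 in each sparsentan group vs. Control and DESeq2 called Hsp90ab1 at 120 mg/kg. Hsp90ab1, the constitutive HSP90 of the cytosol, read 920.2, 904, 889, 863 and 774 CPM in Control and 833, 955, 943, 1166 and 964 CPM in EIC. Under sparsentan it read 999, 925, 1074, 998 and 940.2 CPM in EIC + S60 and 965, 1043, 983, 1208 and 963 CPM in EIC + S120. Each treated group lay above Control, and the LFC was 0.18 ± 0.09 (adjusted p 0.376) and 0.25 ± 0.09 (adjusted p 0.0999) respectively. For Hsp90aa1, the inducible form, the LFC was 0.01 ± 0.10 in EIC + S120 vs. Control (adjusted p 0.975).

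The 40 J-domain genes gave 1 call in EIC vs. Control (Dnajb6), 1 in EIC + S60 vs. Control (Dnajb9) and 3 in EIC + S120 vs. Control (Dnajb6 and Dnajb9 higher, Dnajc5 lower). These are 2.5%, 2.5% and 7.5% of the 40, beside 2.97%, 1.29% and 5.55% of all genes. All came from classes B and C, and the 4 class A genes, which have the full bacterial DnaJ layout, had none. The median LFC of the 40 genes was 0.01 in EIC + S120 vs. Control. Among the 26 class C genes, which share little beyond the J domain, 9 had an LFC above 0 there and 17 below. Of Dnajc6, which encodes auxilin, the partner of HSC70 in uncoating clathrin vesicles, the LFC was 0.24 ± 0.11 in EIC + S60 vs. EIC (adjusted p 0.809).

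None of the 6 BAG genes, the 2 heat shock factors or the 8 tested genes with an HSPB symbol was called by edgeR or DESeq2 in any comparison, and no comparison had more than 1 of each at an unadjusted p under 0.05. Hsf1, the master switch of the heat shock response, read 18.4 to 21.8 CPM in Control, 16.03 to 21.97 CPM in EIC, 16.7 to 19.99 CPM in EIC + S60 and 17.7 to 21.1 CPM in EIC + S120, and its LFC against Control was between -0.15 and -0.04. Its mRNA level does not report its activity, which is set by trimer formation and phosphorylation. Hsf2 had an LFC of -0.25 ± 0.11 in EIC vs. Control (adjusted p 0.25). Of the HSPB symbols, Hspbp1 and Hspbap1 encode partners of HSP70 and of HSPB1 rather than small heat shock proteins, and Hspbap1 had an LFC of -0.37 ± 0.12 in EIC vs. Control (adjusted p 0.137). The small heat shock proteins Hspb6 and Hspb7 and the cilium protein Hspb11 read 4.34 to 5.96, 1.63 to 2.99 and 5.10 to 8.16 CPM in Control.

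The list of ER members held 13 genes and did not hold Dnajb12 and Dnajb14, J-domain proteins of the ER membrane. Of the 13, 9 had an LFC above 0 against Control in EIC, 12 in EIC + S60 and 13 in EIC + S120, beside 47.6%, 47.3% and 46.8% of all genes. The medians were 0.08, 0.15 and 0.12 on the log2 scale, each with the same Control mice beneath it, and Dnajb9 was the one member called (in both sparsentan groups). That is 7.69% of the 13 at each dose, beside 1.29% and 5.55% of all genes. Control mouse 653 had the lowest level of all 20 mice for Calr, Canx, Pdia3, Pdia4, Dnajc1 and Hsp90b1, and without it the counts above 0 were 7, 11 and 12, with medians of 0.05, 0.10 and 0.07. Without EIC + S120 mouse 77 the count in EIC + S120 stayed at 13, with a median of 0.14 and 2 members called, Dnajb9 and Hspa5. Over all genes the share called in EIC + S120 vs. Control was 8.34% without mouse 77, beside 5.55% with it. The LFCs against Control of the 2 genes off the list were -0.01, 0.02 and 0.02 for Dnajb12 and -0.12, 0.03 and 0.00 for Dnajb14.

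Hspa5, at chr2:34771970-34777547 on the plus strand, encodes BiP, the HSP70 of the ER and the sensor that holds the unfolded protein response in check. It read 452, 489, 416, 399 and 354 CPM in Control, 428, 486, 413, 449 and 589 CPM in EIC, 481, 439.7, 553, 577 and 393 CPM in EIC + S60 and 430.4, 565, 627, 646 and 553 CPM in EIC + S120. Among the EIC + S120 mice, mouse 77 was the lowest and the only one inside the Control range. The LFC of EIC + S120 vs. Control was 0.42 ± 0.12 (adjusted p 0.0503), just short of a call. Without mouse 77 it was 0.50 and passed, with an adjusted p of 0.0106, and without Control mouse 653 it was 0.41, with an adjusted p of 0.0879. Calls over all genes also rose without mouse 77, from 5.55% to 8.34%.

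The lectins and isomerases had smaller LFCs. Calr, the soluble lectin that binds glycoproteins and calcium, had LFCs of 0.21, 0.25 and 0.22 against Control in EIC, EIC + S60 and EIC + S120 (adjusted p 0.26, 0.248 and 0.193). Canx, its membrane-bound relative, had 0.01, 0.15 and 0.12, and Pdia3, the isomerase that works with both lectins, had 0.09, 0.16 and 0.13. Hsp90b1, the HSP90 of the ER (GRP94), had 0.11, 0.21 and 0.20, with 0.127 as the adjusted p in EIC + S120. The LFCs of EIC + S120 vs. Control were 0.17 for the isomerase Pdia4, 0.05 for Pdia6, 0.03 for Dnajc3 (the kinase inhibitor P58IPK), 0.03 for Dnajb11 (ERdj3, a partner of BiP), 0.07 for Dnajc1 and 0.08 for Dnajc10 (ERdj5, a disulfide reductase). All of these LFCs are against the same Control mice and none was a call.

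**Figure D3:**
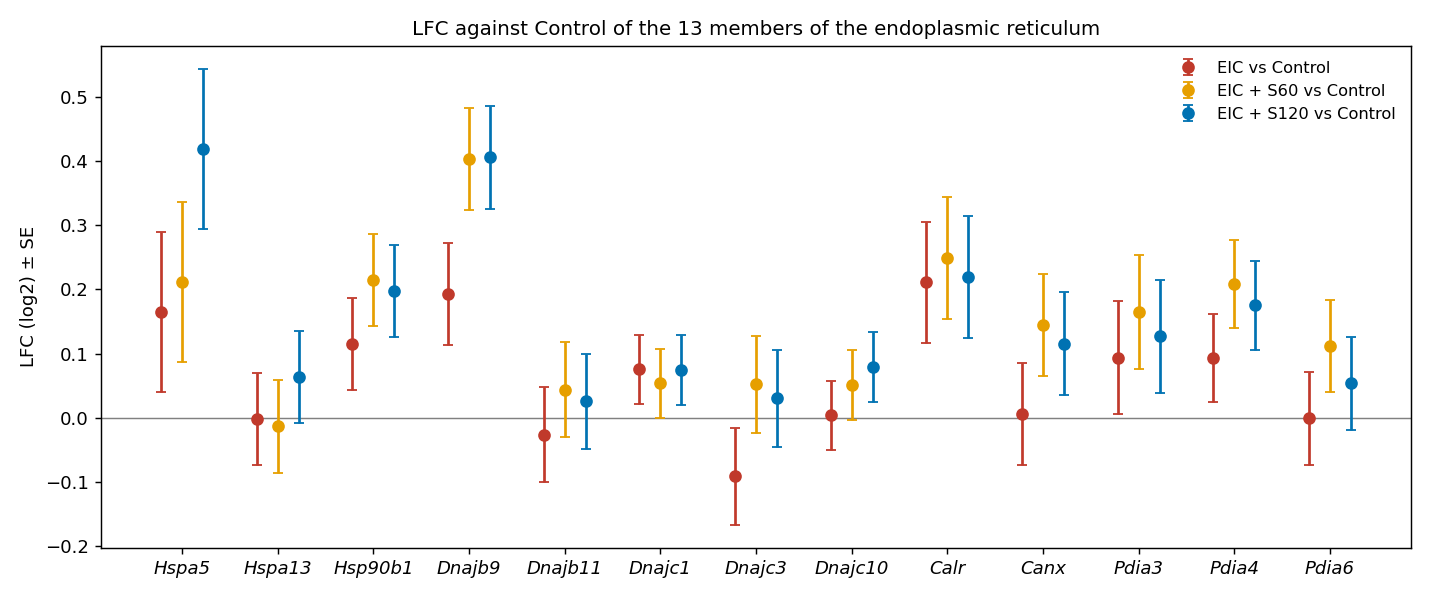
LFC (log2) against Control of the 13 ER members in EIC, EIC + S60 and EIC + S120, with points for the LFC and bars for ± SE. All 13 lie above 0 in EIC + S120 and 12 in EIC + S60, Dnajb9 (0.40 and 0.41) being the one called, with Hspa5 (0.42) at an adjusted p of 0.0503 in EIC + S120.

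Genes of the ER response outside the set were read from a list of 22 tested genes. By edgeR none was called in EIC vs. Control, where 3 had an unadjusted p under 0.05, beside 16.8% of all genes. None was called in EIC + S60 vs. Control either, where 6 had such a p, beside 12.7% of all genes. In EIC + S120 vs. Control 2 were called, both higher (9.09%, beside 5.55% of all genes called and 2.89% called higher). Herpud1, which works in the removal of misfolded ER proteins, read 404, 444, 341, 312 and 292 CPM in Control and 438, 687, 523, 871 and 680.4 CPM in EIC + S120 (LFC 0.83 ± 0.18, adjusted p 0.0081). Manf, a secreted ER stress protein, read 47.2, 56.7, 48.2, 45.8 and 47.3 CPM and 49.7, 72.2, 77.2, 70.5 and 67.2 CPM in the same groups (LFC 0.46 ± 0.12, adjusted p 0.0321). In both, mouse 77 was the lowest of the EIC + S120 mice and lay inside the Control range. In EIC + S120 vs. EIC, 20 of the 22 had an LFC above 0, beside 50.5% of all genes. None was called there and 5 had an unadjusted p under 0.05, beside 8.45% of all genes.

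The list of HSP90 partners and other heat shock factor 1 targets outside the set held 16 tested genes. EdgeR called 1 of them in EIC vs. Control (6.25%, beside 2.97% of all genes) and 1 in EIC + S60 vs. Control (6.25%, beside 1.29%). It called 2 in EIC + S120 vs. Control (12.5%, beside 5.55%) and none in the comparisons between EIC-injected groups. Of the 2 at 120 mg/kg, Ahsa2, a relative of the HSP90 activator AHA1, rose, at 12.7 to 16.3 CPM against 10.03 to 11.2 CPM in Control (LFC 0.45 ± 0.10, adjusted p 0.0124). None of the 13 tested subunits of the cytosolic chaperonin TRiC and prefoldin was called by edgeR in any of the 6 comparisons. The same held for 12 mitochondrial chaperone and protease genes. The most with an unadjusted p under 0.05 in a single comparison were 4 of the 13 (EIC + S120 vs. Control), beside 20% of all genes. For the 12 the most were 2 (EIC + S120 vs. EIC + S60), beside 8.08% of all genes.

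Some of the inducible members were highest in 1 Control mouse, number 653, while others were not, and it ranked 19 of 20 from the top for Hspa8 and 20 of 20 for Hspe1 and Hspd1. Hspa1a and Hspa1b, the stress-induced HSP70 genes, are near-identical neighbours at chr17:34969190-34972156 and chr17:34956436-34959238, both on the minus strand, and reads that fit both may have been shared or lost, so their counts are uncertain. Hspa1b read 24.4, 30.01, 120.83, 31.6 and 19.6 CPM in Control, 26.1, 18.02, 32.9, 54.9 and 41.9 CPM in EIC, 26.9, 36.3, 27.7, 31.8 and 21.1 CPM in EIC + S60 and 56.1, 20.3, 27.1, 43.1 and 24.4 CPM in EIC + S120. Mouse 653 was at 4.44 times the median of the other 4 Control mice and above every other mouse in the study. Hspa1a read 7.58, 9.89, 41.4, 11.6 and 6.96 CPM in Control, with the same mouse at 4.75 times the median of the rest, and 7.38 to 17.1 CPM in EIC.

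The same mouse led for 3 other inducible chaperones. Hspb1 (HSP27, which guards actin filaments) read 8.52, 11.7, 43.2, 11.3 and 9.28 CPM in Control, and Hsph1 (HSP110, which exchanges nucleotide on HSP70) read 101, 109, 289.6, 102 and 82.2 CPM. Hspb8, a small heat shock protein that works with Bag3, read 4.34, 4.42, 10.7, 4.49 and 4.41 CPM. In each of the 3, mouse 653 was the highest and the other 4 Control mice lay close together. In all, 9 members were at least 1.5-fold above the median of the other 4 Control mice in mouse 653 (Hspa1a, Hspa1b, Hspb1, Hsph1, Hspb2, Hspb8, Hspa4l, Hspb7 and Dnaja4), or 11.4% of members, beside 9.81% of all genes. At their highest of 20 mice there were 14 members (17.7%, beside 13.9% of all genes), and at their lowest 13 (16.5%, beside 10.6%). Hspb2 overlaps Cryab by 1030 bases on the other strand, so its reads cannot be told from those of Cryab.

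Some marker genes outside the set were also high in mouse 653. Cryab, the small heat shock protein alpha B-crystallin of the medulla and of muscle, read 507 CPM, against 72.7 to 104 CPM in the other 4 Control mice. Aqp2, the water channel of the collecting duct, read 1246 CPM against 277 to 475 CPM, and Ucp1, a gene of brown fat, read 93.1 CPM against 0.16 to 1.55 CPM. Summed over 5 collecting duct markers, Aqp2 included, the level had a median of 768 CPM in Control and was 1605 CPM in the highest Control mouse. The summed level of the adipocyte markers had a median of 44.7 CPM in Control and was 382 CPM in the highest Control mouse, and Ren1, from the juxtaglomerular cells of the cortex, read 55.6 CPM against 97.3 to 229.6 CPM. Their part in the levels of the inducible chaperones was not tested.

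Leaving mouse 653 out turned the sign of 3 inducible members in EIC vs. Control. The LFC went from -0.40 to 0.37 for Hspa1a, from -0.37 to 0.39 for Hspa1b and from -0.19 to 0.28 for Hsph1, with adjusted p of 0.608, 0.599 and 0.354 without it. Hspb1 went from 0.04 to 0.74 (adjusted p 0.173). None was a call either way, so no direction is given for these genes.

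**Figure D4:**
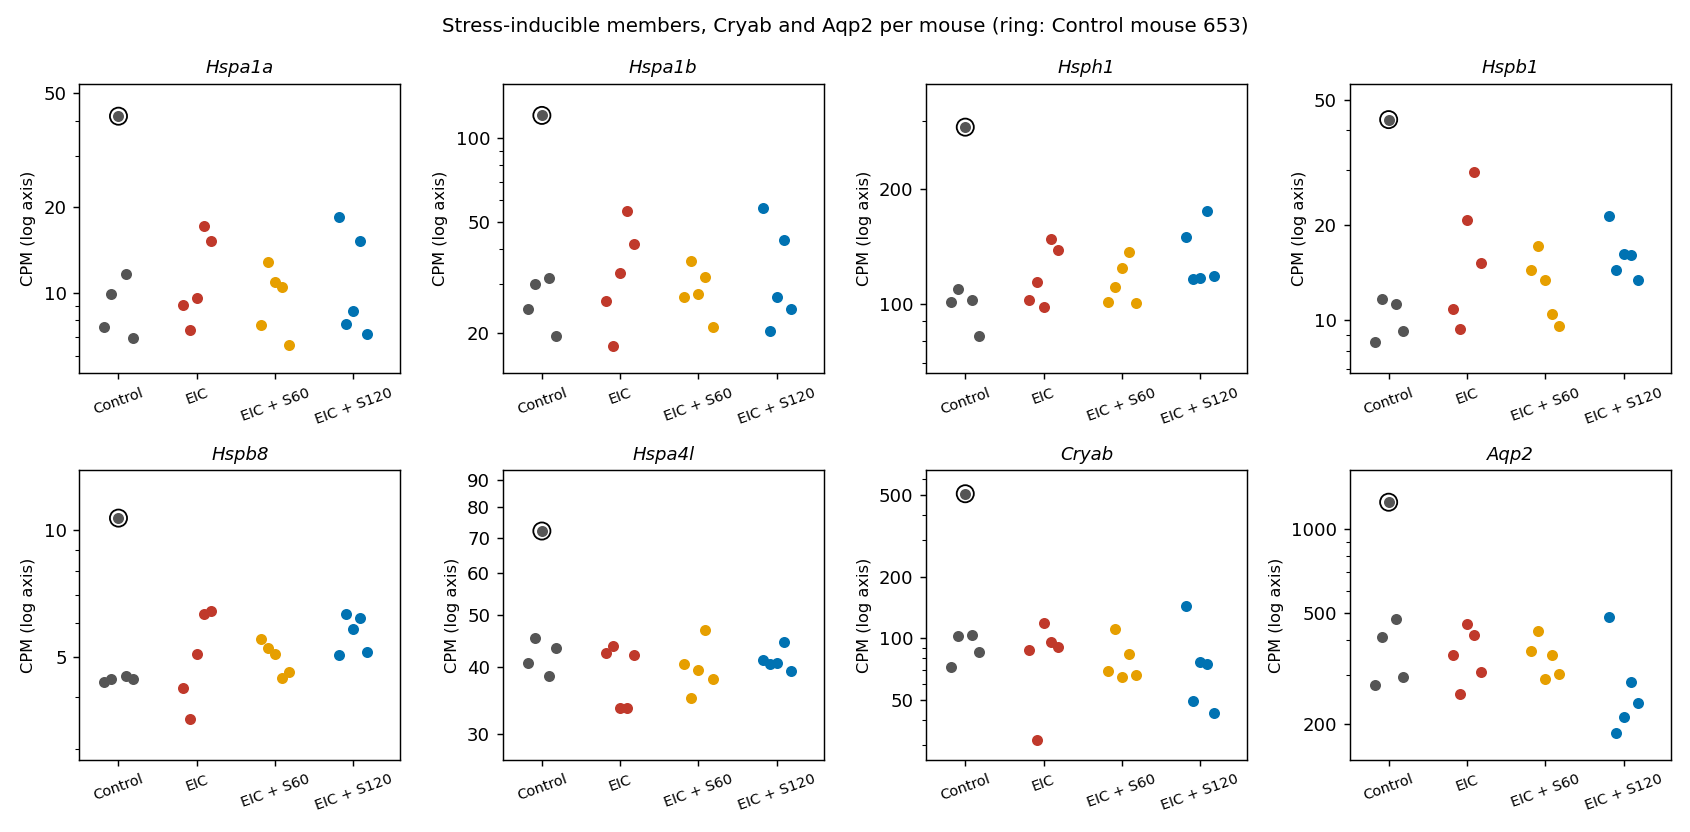
Level of 6 inducible members and of Cryab and Aqp2 in each mouse, as CPM on a log axis, by group (5 mice each), with a ring around Control mouse 653. The ringed mouse is the highest Control point in each of these panels, at 120.83 CPM for Hspa1b and 289.6 CPM for Hsph1.

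Of 14 members that heat shock factor 1 induces, 1 was called in EIC vs. Control (Hspa8), none in EIC + S60 vs. Control and 2 in EIC + S120 vs. Control (Hspa8 and Hspe1), beside 2.97%, 1.29% and 5.55% of all genes. Against Control 9, 7 and 9 of them had an LFC above 0 in EIC, EIC + S60 and EIC + S120, and 12, 12 and 13 without Control mouse 653. That mouse was singled out for its high values of several of these members, so leaving it out raises their LFCs by construction. The counts without it are a description and no sign of a rise. In EIC + S120 vs. EIC + S60, which uses no Control mouse, all 14 had an LFC above 0, beside 50.2% of all genes, with a median of 0.15 and no call. Without EIC + S120 mouse 77 it was 12 of 14, with the same median of 0.15. EIC + S120 mouse 80 was the highest of its group for Hspa8, Hsph1, Hsp90aa1, Hsp90ab1, Dnaja1, Dnajb1, Dnajb4 and Hspa4l. The others were highest in mouse 77 or 81. For Hsp90aa1 mouse 80 read 341 CPM, against 238 to 258 CPM in the rest of its group. The count without mouse 80 is not given, so all 14 above 0 does not show a shift in every mouse. Of the immediate early genes, 13 of 14 had an LFC above 0 in that comparison, with a median of 0.79, and their summed level was 259.5 to 349.8 CPM in EIC + S60 and 459 to 917 CPM in EIC + S120. Their part in the chaperone values was not tested.

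Levels between genes were compared per length, as CPM per kilobase of exon (means of 5 Control mice ± SD). The length joins all annotated exons of a gene, 4301 bases for Hspa8 and 2999 for Hsp90ab1, and is not that of a single transcript. The order below therefore holds for this measure alone. Hsp90ab1 led with 290.1 ± 19.2, followed by Hspd1 with 226 ± 15.6, Calr with 226 ± 20.5, Hspa8 with 214 ± 28.2 and Hspa9 with 205 ± 9.86. Those after the first lay within about 1 SD of their neighbour in the order. Hspa5 was at 99.8 ± 12.1, Hspe1 at 84.9 ± 4.79, Hspa1b at 16.2 ± 15.2 and Hspa1a at 5.22 ± 4.93. Without Control mouse 653 the last 2 were 9.42 ± 1.96 and 3.04 ± 0.725 (n = 4), and the constitutive Hspa8 was at 217 ± 31.3. In EIC + S120 Hspa8 reached 346 ± 49.8 and Hsp90ab1 344 ± 34.5, levels that lay within 1 SD of each other, while Hspa8 was at 295 ± 34.4 in EIC and 276 ± 41.2 in EIC + S60.

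**Figure D5:**
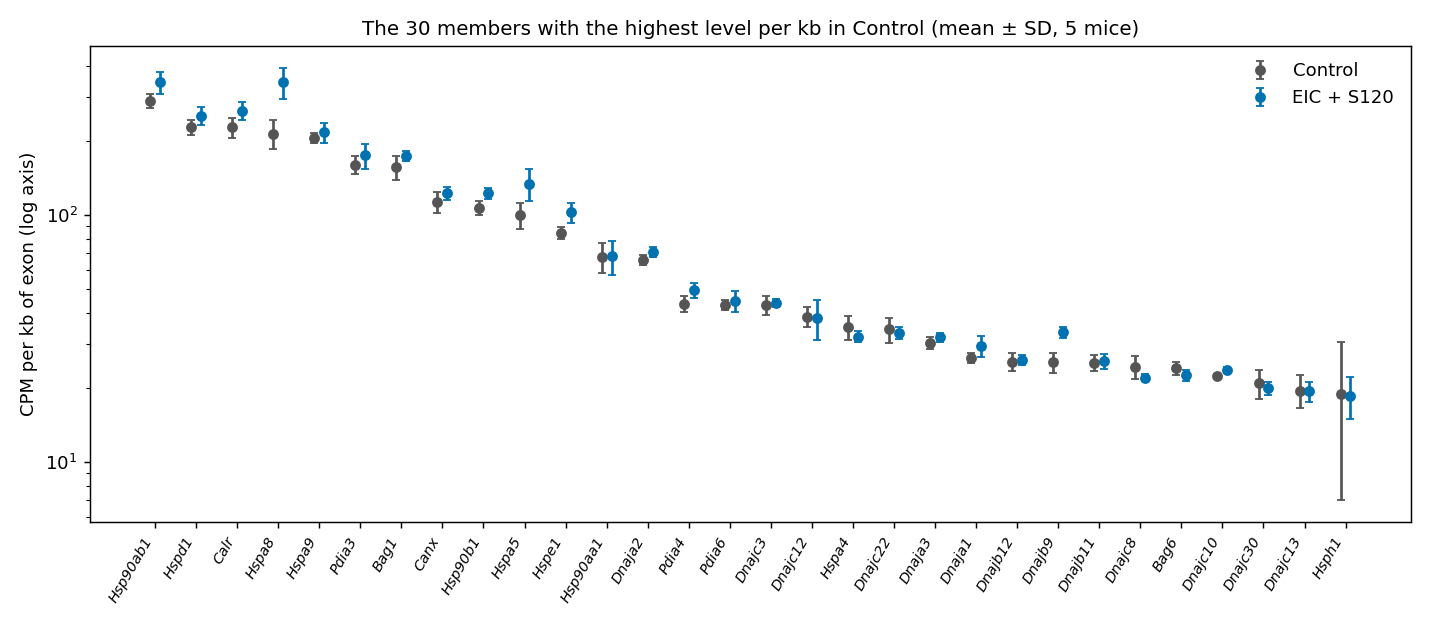
Level of the 30 members with the highest CPM per kilobase of exon in Control, on a log axis, with points for the mean and bars for ± SD over 5 mice, for Control and EIC + S120. The length joins all annotated exons of a gene. Hsp90ab1 leads in Control at 290.1 and Hspa8 moves from 214 in Control to 346 in EIC + S120.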

How the data were processed

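RNA-seq was read from whole kidneys of 20 mice, and the labels put 5 in each of the 4 groups. The deposited files hold unnormalized counts by gene symbol, which the authors made, according to the submitters' processing notes, with Trimmomatic 0.36, STAR 2.5.2b and featureCounts of Subread 1.5.2 on GRCm38. Each library is of 1 mouse, so p-values measure the spread between mice. The gene annotation and the strand option of featureCounts are both not given in the sources used here. Reads of near-identical or overlapping genes may have been shared or lost. Of 190 pairs of libraries none had more than 4.9% of genes with equal counts, so no library was counted as a duplicate.

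Members and lists were chosen with earlier results of these data known. The named members were all those called, the 10 with the smallest p in EIC vs. Control and in each sparsentan group vs. EIC, and the tested members of the HSP70, HSP90, chaperonin, HSPB, heat shock factor and ER lists. Others were named after their values were seen, namely Bag6, Dnajb5, Dnajb12, Dnajc11 and Dnaja4, and outside the set Aqp2, Ucp1 and Ren1. Some genes outside the set are not reported here.

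Genes with 10 or more counts in 5 or more libraries were kept. One robust quasi-likelihood model of all 20 libraries was made with edgeR 4.0.16 (R 4.3.3) after TMM scaling, tested two-sided, and adjusted by Benjamini-Hochberg over the 13990 genes, with a call at an adjusted p under 0.05. CPMs are TMM-scaled. The SE of each LFC is that of limma 3.58.1 with a trend, on log2 CPM (prior count 2). Alternatives were DESeq2 1.42.0, limma-voom, RLE and upper-quartile scaling, no filter, the 10 compared libraries alone, and leaving out single libraries. Leaving out 2 deeper Control libraries, or Control 653 with EIC + S120 77, was chosen after seeing the data. The steps were run on simulated data whose planted changes were larger than most LFCs called here. That run therefore does not cover changes as small as those. Total counts of 12662345 to 38651781 per library set the precision, and levels under the filter were not tested. Coordinates and exon lengths are those of GENCODE vM21 (GRCm38), which held all 83 members, and promoter windows those of RefSeq (GRCm38.p6), which held 67.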

Additional observations from a re-analysis of the deposited data

Results flagged for a closer look

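In 13 cases 1 mouse lay far from the other 4 of its group for a member named above (its gap to the nearest of them was over 0.71 of the range of the group). Chance gives about 1 such case in 20 groups (5%), and there were 16 among the 316 member-and-group sets, which is about that share. Control mouse 653 held 6 of them, all high, with 41.4 CPM for Hspa1a, 120.83 CPM for Hspa1b, 43.2 CPM for Hspb1, 10.7 CPM for Hspb8, 289.6 CPM for Hsph1 and 72.05 CPM for Hspa4l. EIC + S120 mouse 77 was low for Calr (648 CPM) and for Hsp90b1 (450.2 CPM), while EIC + S120 mouse 80 was high for Hsp90aa1 (341 CPM). EIC + S60 mouse 72 was low for Dnajc5 (94.3 CPM) and EIC mouse 66 was high for Dnajc13 (269 CPM). EIC mouse 69 was low for Hsf1 (16.03 CPM) and high for Hspa14 (1.31 CPM).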

How the results depend on the processing

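No paired analysis was possible because the mouse numbers differ between all groups. Member counts stayed at 0 in the 3 comparisons between EIC-injected groups under all settings run. In EIC vs. Control the 2 calls became 0 with only the 10 libraries compared and 1 without the 2 deeper Control libraries. Over all genes the share called there was 1.04% and 0.858%, beside 2.97% in the main fit. The 2 calls ran from 0 to 2 with single libraries left out. They were 0 without Control 654 or 655 or EIC 66 or 69, and 1 without Control 651 or 652 or EIC 65 or 68. In EIC + S60 vs. Control the 1 call became 2 with upper-quartile scaling, with DESeq2 and without Control 653 and EIC + S120 77. DESeq2 called 2.5% of all genes there and the fit without those 2 libraries 1.24%, beside 1.29% in the main fit. The member count ran from 1 to 2 with single libraries left out, being 2 (Dnajb6 and Dnajb9) without Control 653, EIC 66, EIC 68, EIC + S60 71 or EIC + S120 77. In EIC + S120 vs. Control the 5 calls became 3 with only the 10 libraries compared, where 3.7% of all genes were called, beside 5.55% in the main fit. Without the 2 deeper Control libraries that share was 3.81%, and without Control 653 and EIC + S120 77 it was 6.45%. The member count ran from 3 to 6 with single libraries left out, being 3 without Control 651 or 654 or EIC + S120 78, 79, 80 or 81. Hspa5 was called there with RLE or upper-quartile scaling (6 calls each), limma-voom (5, without Hspe1), DESeq2 (7, with Hsp90ab1 too), without the 2 deeper Control libraries (4), without Control 653 and EIC + S120 77 (6), and in 5 of the fits with a single library left out (EIC 69, Control 652, mouse 74 or 75 of EIC + S60, or mouse 77 of EIC + S120). Over all genes DESeq2 called 704 against 416 by edgeR in EIC vs. Control, 349 against 180 in EIC + S60 vs. Control and 1110 against 777 in EIC + S120 vs. Control. It called 5 against 0 in EIC + S60 vs. EIC, 61 against 8 in EIC + S120 vs. EIC and 81 against 9 between the doses. Hspa8, Dnajb6 and Dnajb9 in EIC + S120 vs. Control, and Dnajb9 in EIC + S60 vs. Control, were called in all 20 fits with 1 library left out and in the 8 other settings.

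Signs turned in EIC vs. Control for uncalled members, and the cause was not tested. With single libraries left out the LFC ran from -0.023 to 0.050 for Dnaja1, from -0.0047 to 0.14 for Dnajb1, from -0.051 to 0.10 for Dnajb4, from -0.57 to 0.37 for Hspa1a, from -0.58 to 0.39 for Hspa1b, from -0.23 to 0.74 for Hspb1 and from -0.32 to 0.28 for Hsph1. Without Control 653 and EIC + S120 77 it was 0.37 for Hspa1a, 0.39 for Hspa1b and 0.28 for Hsph1, and without the 2 deeper Control libraries it was -0.31 for Hspb1.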
